A study of Bos taurus with 12 samples.

Results

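The nuclear genes of the mitochondrial respiratory chain and of ATP synthase were followed in liver biopsies of early-lactating dairy cows. Members were all transcripts with exactly 1 gene symbol in the platform annotation whose symbol began with NDUF, UQCR, ATP5 or COX followed by 4 to 8, or was SDHA, SDHB, SDHC or SDHD, with the brightest transcript kept where a symbol had more than 1. This rule used names only and gave 85 genes from 86 of the 26773 transcripts on the array. They were 33 subunits of complex I, 8 assembly factors of complex I, 3 subunits of complex II and 7 of complex III. A further 17 genes were assigned to complex IV and 17 to ATP synthase, which is also called complex V. These include COX7A2L, a supercomplex factor, under complex IV and the inhibitor ATP5IF1 under complex V. A further 12 transcripts carried a symbol of this kind together with other symbols and were left out, and SDHC was matched to no transcript and is not analysed here.

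The livers came from 12 female Holstein cows, 6 in the control group and 6 in the GSGME group, with 1 array per cow. GSGME is a grape seed and grape marc meal extract rich in flavonoids, and it made up 1% of the dry matter of the ration of its group from 3 weeks before the expected calving date onwards, while control cows received 1% of wheat bran in the same basal ration. Biopsies were taken with a needle at about day 7 after calving, in week 1 of lactation. Single livers are named below by group and cow number, as in the labels, and the comparison asks whether the extract went along with a different transcript level in the liver at that time.

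The respiratory chain passes electrons from NADH, through complex I, and from succinate, through complex II, to ubiquinone, and from there through complex III and cytochrome c to complex IV, where oxygen is reduced to water. Complexes I, III and IV pump protons across the inner mitochondrial membrane, and ATP synthase uses the return flow to make ATP. Liver cells hold many mitochondria, and around calving they oxidise large amounts of fatty acids mobilised from adipose tissue, a process that feeds NADH and reduced flavins into this chain. Several subunits of complex IV exist in a general form and in forms typical of heart, skeletal muscle, lung or testis, as known mainly from human and rodent tissues.

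Values are log2 signals after robust multi-array averaging (RMA), on which a difference of 1 is a doubling. Array medians lay between 6.02 and 6.17, and pairwise correlations between arrays between 0.968 and 0.990. The 14 hepatocyte markers averaged 12.25 to 12.37 in single control livers and 12.27 to 12.37 in single GSGME livers, so that the tissue label was borne out by its defining genes. Of the markers of dividing cells, 10 of 13 were up-regulated by the criterion given below, with a median log2 difference of 0.96, although that list holds genes which the study picked from these arrays and is no independent evidence. Of the T, NK and B cell markers 3 of 13, and of the Kupffer cell and macrophage markers 1 of 12, were up-regulated, and no marker of the hepatocyte, muscle, adipocyte, erythroid, endothelial, stellate or bile duct lists passed. The share up-regulated over all transcripts was 1.2%. Liver_GSGME_821 stood apart from the other 11 livers, with the highest mean signal of the stellate cell markers (8.17, other livers up to 7.27) and of the bile duct markers (6.77, other livers up to 6.03). Since whole tissue was measured, fewer cells of a type and less RNA per cell cannot be told apart in any result that follows.

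None of the 85 genes was changed in the GSGME group by the criterion used here, a fold change beyond 1.3 in either direction with an unadjusted P under 0.05 in limma. Both thresholds are those of the study, but limma took the place of the unpaired test that its methods name. Over all transcripts 322 (1.2%) passed this criterion upwards and 167 (0.624%) downwards. After cyclic loess normalisation between arrays these numbers became 375 and 112, and the members still gave 0 in both directions. Without any fold threshold, 0 members had P under 0.05 in limma, compared with 718 of all transcripts (2.68%) higher and 849 (3.17%) lower in GSGME livers. By the unpaired test that the methods name 1 member, SDHB, had an unadjusted P under 0.05, and 0 members passed both thresholds. With that test 226 of all transcripts passed both upwards and 109 downwards. The paper reports fewer transcripts in either direction, and the cause of this was not tested. After Benjamini-Hochberg adjustment over all 26773 transcripts 0 members and 0 transcripts (0%) had an adjusted P under 0.05. The lowest adjusted P of a member was 0.83.

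The differences were small as well as not significant. The log2 difference between the group means (GSGME minus control) ranged from -0.29 for COX4I2 to 0.28 for COX7B2, and its median over the 85 genes was 0.003, compared with -0.015 over all transcripts. The GSGME mean was higher in 45 genes, lower in 39 and equal in 1, NDUFB11. A lower GSGME mean was seen in 54.3% of all transcripts and in 45.9% of the members. Among transcripts brighter than the median transcript, as most members were, the share was 46.5% and the median difference 0.01. For 66 of the 85 genes (77.6%) the whole 95% confidence interval of the difference lay within 1.3-fold in either direction, compared with 59.6% of all transcripts. The residual standard deviation between livers of a group had a median of 0.173 over the members and of 0.200 over all transcripts, and 76 of the 85 genes were brighter than the median transcript. There was no member whose control and GSGME livers did not overlap, a pattern that 0.0859% of all transcripts showed with GSGME higher and 0.131% with GSGME lower. Differences of the 12 transcripts with several symbols, left out by the rule, ranged from -0.04 to 0.39, the latter beyond 1.3-fold. None of those 12 passed the criterion or had P under 0.05 (lowest unadjusted P = 0.0506, limma).

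**Figure D1:**
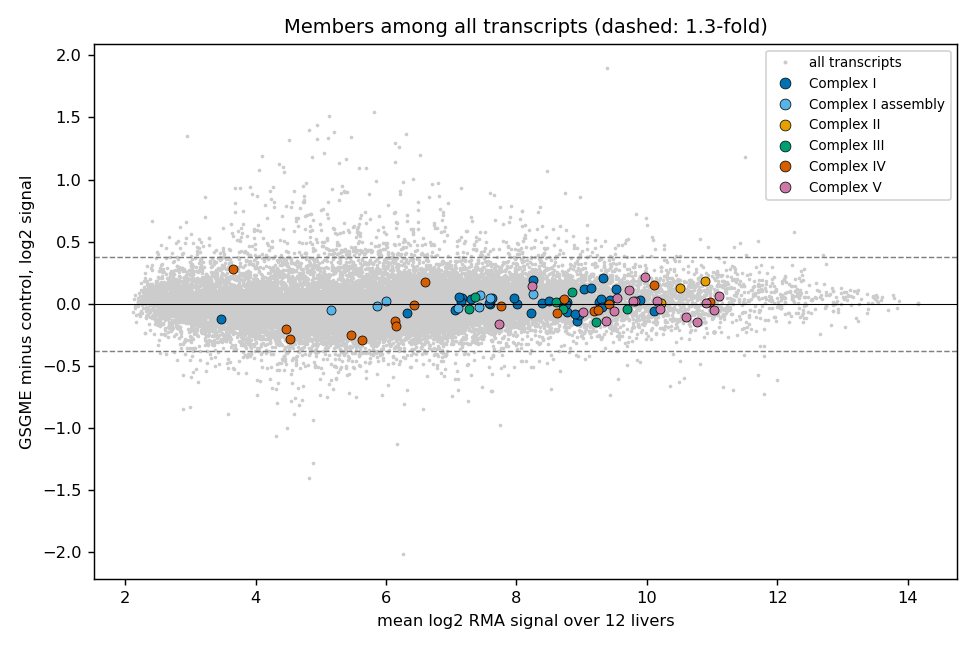
Log2 difference (GSGME minus control, vertical axis) against the mean log2 RMA signal over 12 livers (horizontal axis) for all 26773 transcripts in grey and the 85 members in the colour of their complex; dashed lines mark 1.3-fold. All members lie between -0.29 and 0.28, inside the dashed lines.

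Complex I takes electrons from NADH. Its 33 measured subunits averaged 8.29 ± 0.10 log2 units over control livers and 8.31 ± 0.11 over GSGME livers (SD, n = 6 livers each), and the median difference of its genes was 0.012. The GSGME mean was higher in 20 subunits, lower in 12 and equal in 1, and 27 of 33 intervals lay within 1.3-fold. Both subunits with the lowest P were higher on average in GSGME livers.

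NDUFS3, a core subunit of the arm that carries the iron-sulfur clusters, had control values of 7.98 to 8.34 with a median of 8.15 and GSGME values of 8.15 to 8.60 with a median of 8.37. Liver_GSGME_741, Liver_GSGME_1047 and Liver_GSGME_1001 exceeded every control liver, whereas the other GSGME livers lay within the control range. The difference was 0.20 (95% confidence interval -0.02 to 0.41, unadjusted P = 0.069, adjusted P = 0.83, limma). NDUFB2, an accessory subunit of the membrane arm, had control values of 9.05 to 9.55 with a median of 9.15 and GSGME values of 9.19 to 9.74 with a median of 9.41. The groups overlapped over most of their range, and 5 of 6 GSGME livers lay above the control mean. Its difference was 0.21 (interval -0.03 to 0.45, unadjusted P = 0.083).

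The other core subunits were closer to no difference. NDUFV1, which binds NADH, differed by -0.005 (interval -0.21 to 0.20), and NDUFS1, which holds several iron-sulfur clusters, by 0.013 (interval -0.22 to 0.25). NDUFV2 and NDUFS8, also iron-sulfur proteins, spread over 1.11 and 1.06 log2 units across the 12 livers, and their intervals of -0.33 to 0.40 and -0.19 to 0.42 did not exclude a change of 1.3-fold. The most negative difference in complex I was that of the accessory subunit NDUFA12, at -0.14 (interval -0.40 to 0.12). NDUFB4, an accessory subunit, had a mean signal of 3.53 in control livers, under the median of 3.67 of the 717 olfactory receptor transcripts, which serve here as a guide to the signal of genes with no role in liver, so its difference of -0.12 is that of a transcript near background.

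The 8 assembly factors NDUFAF1 to NDUFAF8, which help to build complex I and are not part of it, had a median difference of 0.001 and a range of -0.05 to 0.08. All 8 intervals lay within 1.3-fold. NDUFAF1 and NDUFAF7 had the lowest P of the group, 0.454 and 0.467, with differences of 0.077 and 0.075. For NDUFAF7, a methyltransferase that acts on a core subunit, every GSGME liver lay above the control mean of 7.40, yet the control livers ranged from 7.06 to 7.75 and enclosed all GSGME values of 7.43 to 7.62.

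Complex II, or succinate dehydrogenase, is shared by the tricarboxylic acid cycle and the respiratory chain. All 3 measured subunits had a GSGME mean above the control mean, the median difference was 0.125, and all 3 intervals lay within 1.3-fold. The subunits averaged 10.49 ± 0.07 log2 units over control livers and 10.60 ± 0.11 over GSGME livers (SD, n = 6 livers each).

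SDHB, the iron-sulfur subunit, had the lowest P of all 85 genes. Its control values ran from 10.52 to 10.92 with a median of 10.89, and its GSGME values from 10.86 to 11.10 with a median of 11.01. All 6 GSGME livers were above the control mean and 4 of them above every control liver, while Liver_GSGME_821 and Liver_GSGME_741 fell within the control range. The difference was 0.19, with a 95% confidence interval from just under 0 to 0.37 (unadjusted P = 0.0504, adjusted P = 0.83, limma). SDHB crossed the unadjusted threshold in 5 of the 12 fits that left out a single liver, the lowest P being 0.0376 without Liver_GSGME_821. Without Liver_control_1150, the liver with the lowest SDHB value, the difference was 0.13 (unadjusted P = 0.124, limma).

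SDHA, the flavoprotein that oxidises succinate, had control values of 10.21 to 10.67 (median 10.42) and GSGME values of 10.25 to 10.73 (median 10.64). The groups overlapped over nearly their whole range, and the difference was 0.13 (interval -0.10 to 0.35, unadjusted P = 0.251). SDHD, a membrane anchor, had a difference of 0.003 (interval -0.19 to 0.19), the sign of which turned after cyclic loess normalisation, where it was -0.031.

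Complex III passes electrons from ubiquinol to cytochrome c. Its 7 genes averaged 8.54 ± 0.10 log2 units over control livers and 8.53 ± 0.13 over GSGME livers (SD, n = 6 livers each), a median difference of -0.04 and 5 of 7 intervals within 1.3-fold. The lowest P belonged to UQCR10, a small subunit, with control values of 9.07 to 9.60 (median 9.27) and GSGME values of 8.73 to 9.55 (median 9.22). GSGME livers were more widely scattered than control livers, and the difference was -0.15 (interval -0.45 to 0.15, unadjusted P = 0.312). UQCRC1, a core protein of the matrix side, differed by 0.09 (interval -0.13 to 0.32), and UQCRFS1, the Rieske iron-sulfur protein that takes the first electron, by -0.05 (interval -0.24 to 0.15). UQCRB, which lies close to the ubiquinone site, spread over 1.3 log2 units across the livers, from 7.99 in Liver_control_825 to 9.29 in Liver_GSGME_1001, and its interval of -0.50 to 0.43 left changes beyond 1.3-fold in either direction possible.

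Complex IV, cytochrome c oxidase, was the complex with the widest differences. Only 8 of its 17 intervals lay within 1.3-fold, the GSGME mean was lower for 11 genes and higher for 6, and the median difference was -0.05. Its genes averaged 7.27 ± 0.10 log2 units over control livers and 7.22 ± 0.05 over GSGME livers (SD, n = 6 livers each). The 10 general forms had 5 higher and 5 lower means, a median difference of -0.003 and 7 intervals within 1.3-fold. The 7 tissue forms, with NDUFA4L2 counted among them, had 1 higher and 6 lower means, a median difference of -0.18 and 1 interval within 1.3-fold. None of the 7 tissue forms had P under 0.05 in limma, and only 3 were brighter than the median transcript. A lower GSGME mean was seen in 54.3% of all transcripts and in 46.5% of those brighter than the median transcript. After cyclic loess normalisation COX4I2, COX8B, NDUFA4L2, COX7A1 and COX6B2 were closer to no difference (-0.23, -0.18, -0.23, -0.14 and -0.09). COX6A2 and COX7B2 moved further from it (-0.04 and 0.30).

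Among the general forms, COX8A was the steadiest of all 85 genes, with a range of 0.18 log2 units over the 12 livers and a difference of 0.02 (interval -0.12 to 0.16), which became -0.017 after cyclic loess normalisation. COX4I1, the regulatory subunit that binds ATP, had control values of 9.08 to 9.50 and GSGME values of 9.03 to 9.26 and differed by -0.06 (interval -0.24 to 0.12). COX6A1 differed by 0.002 (interval -0.25 to 0.26) and turned to -0.031 after cyclic loess normalisation, and COX7A2 differed by -0.05 (interval -0.23 to 0.14). For these general forms the intervals were all within 1.3-fold. NDUFA4, once counted with complex I and now assigned to complex IV, differed by -0.08 (interval -0.35 to 0.20), and COX7A2L, a factor that joins complexes III and IV into supercomplexes, by 0.15 (interval -0.13 to 0.43). Both depended on single livers, as COX7A2L differed by 0.038 without Liver_control_1017, and NDUFA4 by -0.18 without Liver_control_1017 and by -0.002 without Liver_control_1031.

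The tissue forms COX4I2, COX8B and NDUFA4L2 had the lowest P of the complex. COX4I2, a form of subunit 4 typical of lung, ranged from 5.51 to 6.21 (median 5.71) in control livers and from 5.01 to 5.71 (median 5.55) in GSGME livers. All 6 GSGME livers were below the control mean, but the ranges overlapped between 5.51 and 5.71, and the difference was -0.29 (interval -0.59 to 0.01, unadjusted P = 0.058). COX8B, the heart and skeletal muscle form of subunit 8 in cattle, ranged from 5.20 to 5.86 (median 5.67) in control and from 5.11 to 5.66 (median 5.34) in GSGME livers. Only Liver_GSGME_1143 exceeded the control mean, the ranges overlapped over most of their length, and the difference was -0.25 (interval -0.50 to 0.01, unadjusted P = 0.056). NDUFA4L2, a hypoxia-inducible relative of NDUFA4, ranged from 4.27 to 5.18 (median 4.66) in control and from 4.12 to 4.57 (median 4.41) in GSGME livers. All 6 GSGME livers lay below the control mean and 5 of them within the control range, and the difference was -0.28 (interval -0.57 to 0.01, unadjusted P = 0.055).

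Liver_control_825 had the highest value of the 12 livers for COX4I2, for NDUFA4L2 and for COX6A2, the muscle form of subunit 6A. Without this liver the differences of COX4I2 and NDUFA4L2 were -0.20 (unadjusted P = 0.140, limma) and -0.18 (unadjusted P = 0.126), and that of COX6A2 turned from -0.02 to 0.07. For COX8B, where 3 control livers were higher than Liver_control_825, the difference was -0.24 without it (unadjusted P = 0.086, limma), and that of COX7A1, the heart and muscle form of subunit 7A, was -0.15. The same liver had the highest mean signal of the 16 skeletal muscle markers, 5.22, compared with 4.88 to 5.06 in the other control livers and 4.86 to 5.07 in the GSGME livers. The adipocyte markers were highest in it as well, at 5.43. Other control livers had 5.19 to 5.37 and GSGME livers 5.19 to 5.39. Both lists lay below the median transcript signal of 6.07, as did COX4I2 and NDUFA4L2 but not COX6A2. The erythroid and bile duct lists, at 5.54 and 5.99 in this liver, lay below that signal as well. They deviated by 0.11 and 0.10 from their 12-liver means. The liver also had the lowest array weight of the 12, 0.431. Only 5351 of the 13386 transcripts brighter than the median lay above their own 12-liver mean in it, compared with 14331 of all 26773. None of the 16 muscle markers had P under 0.05, their median difference was -0.08 and CKM, the muscle creatine kinase with the lowest P among them, differed by -0.23 (interval -0.46 to 0.004). In Liver_control_825, a single liver, high COX4I2, NDUFA4L2 and COX6A2 went along with high muscle and adipocyte markers and a low array weight. They also went along with a low share of bright transcripts above their own mean. The part of the markers, of the array weight and of signal strength in the differences was not tested.

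Of the other tissue forms, COX7A1 had a difference of -0.18 (interval -0.41 to 0.05, unadjusted P = 0.107), and COX6B2, a testis form, one of -0.14 (interval -0.38 to 0.10) with all 6 GSGME livers below the control mean, which became -0.07 without Liver_control_1031 (unadjusted P = 0.519, limma). COX7B2, also a testis form, had mean signals of 3.51 in control and 3.79 in GSGME livers, close to that of olfactory receptors, and its difference of 0.28 became 0.09 without Liver_GSGME_1143. COX7B2, COX7C and COX7B had the largest ranges over the 12 livers of all members. COX7C ran from 5.46 in Liver_control_825 to 7.11 in Liver_GSGME_1047, and its difference of 0.17 (interval -0.365 to 0.71) turned to -0.04 without Liver_control_825. COX7B ranged from 3.90 to 5.44 in control livers and from 3.94 to 4.70 in GSGME livers, with a difference of -0.20 (interval -0.67 to 0.27) that became -0.03 without Liver_control_819. Both COX7B and COX7C were also named on transcripts that carry several symbols, so their signals may be shared with near-identical copies and are uncertain.

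**Figure D2:**
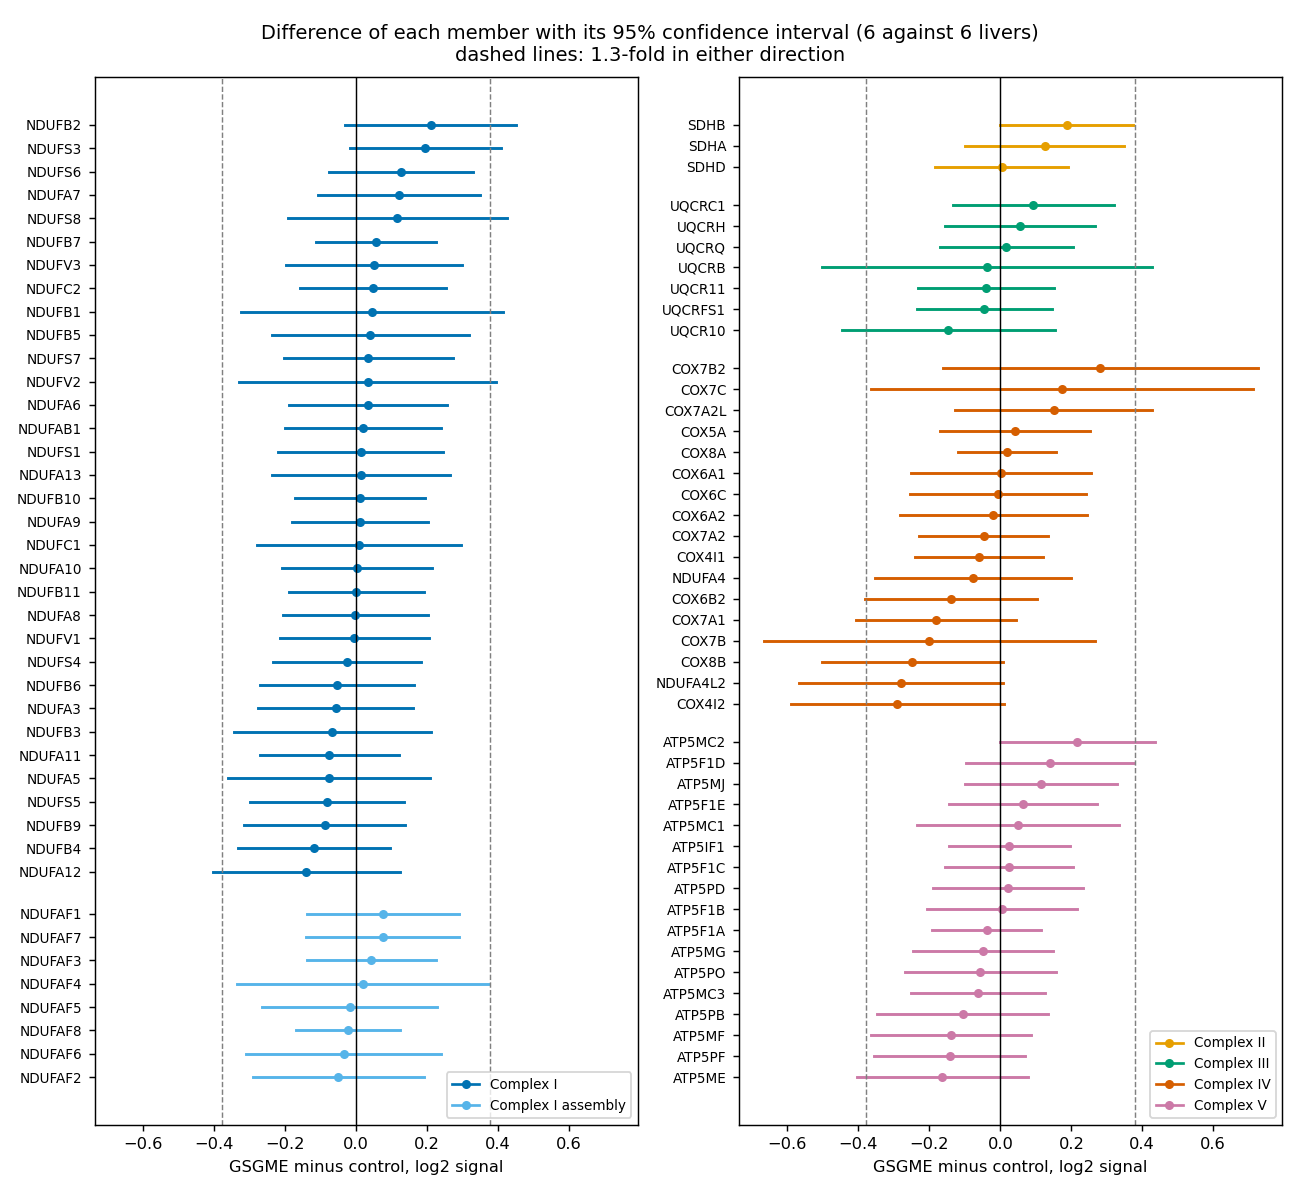
Log2 difference (GSGME minus control, horizontal axis) of each of the 85 members with its 95% confidence interval from limma, ordered within complexes; dashed lines mark 1.3-fold. Every interval includes 0, and 66 lie wholly within the dashed lines, 8 of 17 in complex IV and 15 of 17 in complex V.

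ATP synthase averaged 9.86 ± 0.07 log2 units over control livers and 9.85 ± 0.09 over GSGME livers (SD, n = 6 livers each) over its 17 genes. The median difference was 0.005, with 9 higher and 8 lower means, and 15 of 17 intervals lay within 1.3-fold. The 5 genes of the F1 head, where ATP is made, differed by a median of 0.02, and all 5 intervals were within 1.3-fold. The catalytic subunit ATP5F1B differed by 0.005 (interval -0.21 to 0.22), its partner ATP5F1A by -0.04 (interval -0.19 to 0.12), and the central stalk subunit ATP5F1C by 0.02 (interval -0.16 to 0.20). ATP5F1A was also among the steadiest members, with a range of 0.26 log2 units over the 12 livers. ATP5IF1, which inhibits ATP hydrolysis by the enzyme, differed by 0.03 (interval -0.15 to 0.20).

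The ring that turns with the proton flow is built from c subunits, which are encoded by ATP5MC1, ATP5MC2 and ATP5MC3 and have the same mature protein in mammals. ATP5MC2 had the lowest P of complex V, with control values of 9.76 to 9.98 (median 9.89) and GSGME values of 9.67 to 10.26 (median 10.17). While 5 of 6 GSGME livers were above every control liver, Liver_GSGME_1001 had the lowest value of all 12. The difference was 0.22 (interval from just under 0 to 0.44, unadjusted P = 0.0516, adjusted P = 0.83, limma), and without Liver_GSGME_1001 it was 0.30 (unadjusted P = 0.0026). Without Liver_GSGME_821 it was 0.18, the smallest with a liver left out, and after cyclic loess normalisation also 0.18 (unadjusted P = 0.097, limma). ATP5MC1 and ATP5MC3 differed by 0.05 (interval -0.24 to 0.34) and -0.06 (interval -0.25 to 0.13), so that ATP5MC2 was not followed by the other genes of the ring; whether the 3 genes differ from each other was not tested. The stalk and membrane subunits were lower on average in 7 of 11 cases, and the lowest P of these was that of ATP5ME, a membrane subunit, at -0.16 (interval -0.41 to 0.08, unadjusted P = 0.170). ATP5F1E, a central stalk subunit, had a second, dimmer transcript, which differed by -0.11 (unadjusted P = 0.482, limma).

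**Figure D3:**
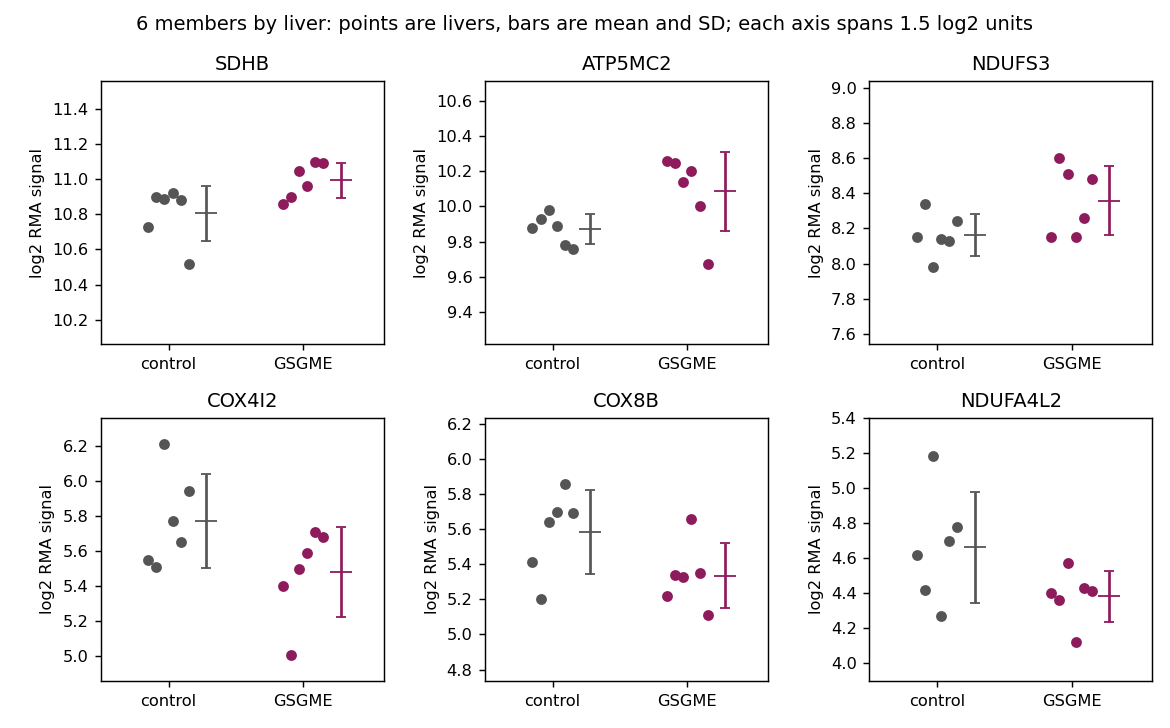
Log2 RMA signal (vertical axis) of 6 members in each control and GSGME liver (points), with the group mean and SD beside them (n = 6 livers each). The 6 are members with the lowest unadjusted P, from 0.0504 for SDHB to 0.069 for NDUFS3, and in all 6 panels the groups overlap.

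Many members deviated together in single livers. In Liver_GSGME_1047, 74 of 85 genes lay above their own 12-liver mean, with a median deviation of 0.14, among them 30 of 33 in complex I, 7 of 7 in complex III and 17 of 17 in complex V. In Liver_GSGME_821 only 14 of 85 lay above, with a median deviation of -0.14, among them 4 of 33 in complex I, 0 of 7 in complex III and 2 of 17 in complex V. Both livers belong to the GSGME group, which therefore held the highest and the lowest liver of the series. In the control group the number above the mean ran from 27 in Liver_control_1017 to 60 in Liver_control_819. Related gene lists, described below, leaned the same way in Liver_GSGME_1047 and Liver_GSGME_821. The tricarboxylic acid cycle, electron carrier and outside assembly factor lists had mean deviations of 0.18, 0.14 and 0.09 in Liver_GSGME_1047. In Liver_GSGME_821 these were -0.17, -0.08 and -0.07. The biogenesis regulators deviated by 0.02 in Liver_GSGME_1047 and by -0.11 in Liver_GSGME_821. In Liver_control_1017, where most members were low, the tricarboxylic acid cycle, outside assembly factor and biogenesis lists deviated by 0.08, 0.02 and 0.18. The electron carrier list deviated by -0.06 there.

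Over all transcripts the share above their own mean stayed between 45.4% and 55.5% in every liver. Among transcripts brighter than the median transcript, as most members were, it ran from 39.97% in Liver_control_825 to 58.05% in Liver_control_819. That share was 49.92% in Liver_GSGME_821 and 55.54% in Liver_GSGME_1047. For the members the share ran from 16.5% to 87.1%. Whether other sets of 85 genes range as widely was not tested. In complex IV, 7 of 17 genes were above their mean in Liver_GSGME_821 and 10 of 17 in Liver_GSGME_1047. Of the general forms 5 of 10 were above it in Liver_GSGME_821 and 8 of 10 in Liver_GSGME_1047, and of the tissue forms 2 of 7 in either liver. Whether complex IV differs from the other complexes in this was not tested. All 85 genes averaged 8.36 ± 0.08 log2 units over control livers and 8.36 ± 0.09 over GSGME livers (SD, n = 6 livers each). The median difference of the members became 0.04 without Liver_GSGME_821 and -0.03 without Liver_GSGME_1047. The number of members past the criterion was 0 without either liver.

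Liver_GSGME_821, the liver with the low values, had the highest signal of 4 marker lists of other cell types and of the endothelial list. Its mean deviation from the 12-liver mean was 0.95 for the 9 stellate cell and fibroblast markers, 0.88 for the 6 bile duct markers, 0.58 for the 12 Kupffer cell and macrophage markers and 0.47 for the 13 T, NK and B cell markers. Its erythroid, muscle and adipocyte markers deviated by -0.04, -0.05 and 0.10, and each of these lists was higher in another liver. Its hepatocyte markers deviated by -0.06. In Liver_GSGME_1047 the stellate, bile duct, Kupffer and T, NK and B cell lists deviated by -0.01, -0.28, 0.05 and 0.01, and hepatocyte markers by 0.02. Liver_GSGME_741 had Kupffer and endothelial deviations of 0.46 and 0.25 and stellate and bile duct deviations of 0.01 and 0.06. In it 47 of 85 members lay above their own mean. Liver_control_1017 and Liver_control_825 had 27 and 29 of 85 members above. Their Kupffer lists deviated by -0.07 and -0.55 and their stellate lists by -0.19 and -0.06. The part of other cell types in the values of the members was not tested.

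**Figure D4:**
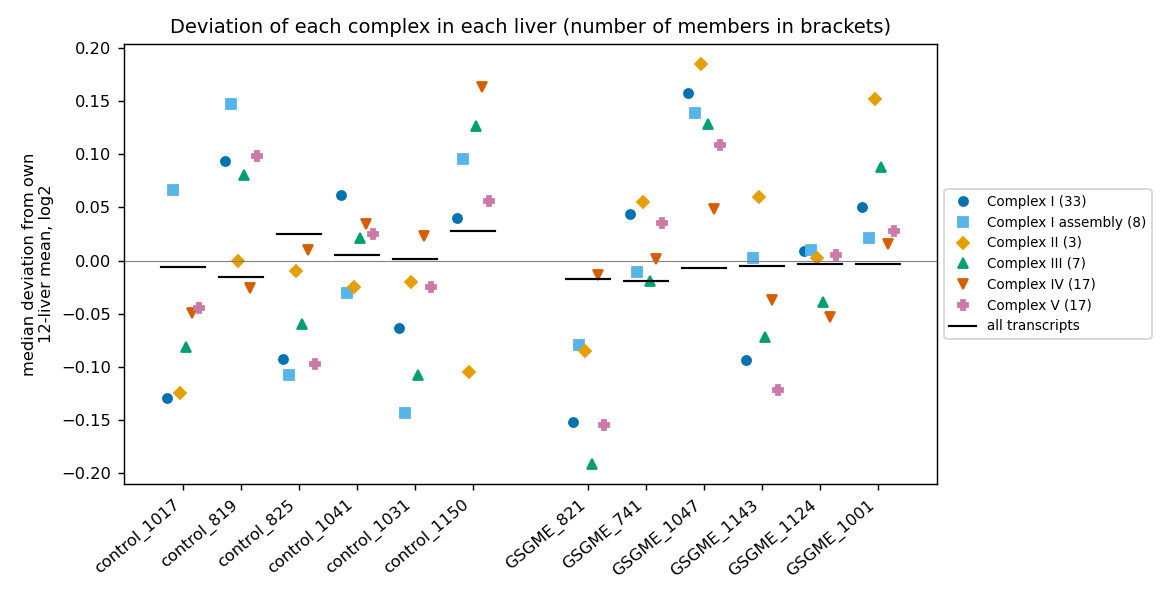
Median deviation (log2, vertical axis) of the genes of each complex from their own 12-liver mean in each liver (horizontal axis), with the median of all transcripts as a black line. Complexes I, III and V lie together at the bottom in GSGME_821 and at the top in GSGME_1047, and both groups hold livers above and below 0.

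Of 26 measured genes for electron carriers, ubiquinone synthesis and nucleotide exchange, 0 passed the criterion in either direction, 3 had an unadjusted P under 0.05 with GSGME higher and 0 with GSGME lower, and the median difference was 0.02. These were COQ2, which attaches the side chain of ubiquinone, NNT, the transhydrogenase that makes NADPH at the expense of the proton gradient, and SLC25A6, an ADP and ATP carrier. COQ2 ranged from 9.17 to 9.45 (median 9.26) in control and from 9.32 to 9.61 (median 9.45) in GSGME livers, a difference of 0.18 (interval 0.02 to 0.35, unadjusted P = 0.034, adjusted P = 0.83). NNT ranged from 8.34 to 9.04 (median 8.80) in control and from 8.76 to 9.14 (median 9.04) in GSGME livers, a difference of 0.28 (interval 0.02 to 0.55, unadjusted P = 0.039, adjusted P = 0.83). For both genes all 6 GSGME livers were above the control mean and the groups overlapped. Over all transcripts 2.68% had an unadjusted P under 0.05 in limma with GSGME higher and 3.17% with GSGME lower.

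Of 44 measured assembly factors of complexes II to V and others outside the naming rule, 0 passed the criterion and 1 had an unadjusted P under 0.05, COA6, a copper-handling factor of complex IV, with a difference of 0.26 (interval 0.06 to 0.45, unadjusted P = 0.014). COX16, another assembly factor of complex IV, differed by 0.24 (unadjusted P = 0.052). The 18 genes of the tricarboxylic acid cycle and pyruvate oxidation gave 0 with P under 0.05 in either direction and a median difference of -0.04, with IDH3B at 0.14 (unadjusted P = 0.128, limma) and SUCLG1 at -0.13 (unadjusted P = 0.142) as those with the lowest P. Of 22 regulators of mitochondrial biogenesis 0 passed the criterion and 1 had P under 0.05, the coactivator PPARGC1B, with control values of 5.45 to 5.69, GSGME values of 5.11 to 5.55 and a difference of -0.23 (interval -0.41 to -0.04, unadjusted P = 0.021, adjusted P = 0.83). GABPB1, a subunit of a transcription factor for many respiratory chain genes, differed by -0.17 (unadjusted P = 0.056), and the median of the regulators was -0.01. A count of 1 in lists of 44 and 22 genes is near the shares over all transcripts, 2.68% higher and 3.17% lower. Of the 13 subunits encoded in mitochondrial DNA, none was matched to a transcript with a single symbol, and they were not analysed here.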

How the data were processed

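The authors hybridised total liver RNA of each cow to an Affymetrix Bovine Gene 1.0 ST array and computed log2 signals per transcript by RMA in Affymetrix Expression Console (per the labels and methods), rounded to 2 decimals. These deposited log2 values were used without further normalisation, background correction or filter. Gene symbols came from the platform annotation, in which 18457 transcripts had 1 symbol.

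All 26773 transcripts were fitted with limma 3.58.1 (lmFit and eBayes, R 4.3.3, two-sided, 6 against 6 livers), P-values were adjusted by Benjamini-Hochberg over all of them, and the rows of the members were read out. No pair of arrays was identical. The number of arrays limits the precision. The array's genome build, scan dates and batches are not stated in the labels or methods. The fit was tested on simulated data. There limma with the criterion called 21 of 50 transcripts with a true 1.3-fold change and 45 of 50 with a 1.5-fold change. It also called 373 of 26573 unchanged transcripts.

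Members and lists were chosen with earlier results of these data known. Individually named are members with P under 0.05, the 2 of lowest P in each complex, complex II subunits, genes with tissue forms, the 3 members of largest range, and the 2 genes of lowest P in context lists; other members were added after their values were seen, for their role or as extremes. Alternatives were the methods' t-test, cyclic loess, weighted arrays, brighter transcripts only, eBayes with trend and robust, averaged transcripts per symbol, fold thresholds of 1.2 and 1.5, and leaving out each liver.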

Additional observations from a re-analysis of the deposited data

Results flagged for a closer look

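In 3 of 70 groups examined, 6 control or 6 GSGME values of a named gene or a complex, a single liver lay far from the others relative to the range of its group, by Dixon's 95% critical value, which chance exceeds in about 1 of 20 groups. ATP5MC3 was 9.25 in Liver_control_1150 and 8.97 to 9.03 in the other control livers. NDUFAF7 was 7.62 in Liver_GSGME_1047 and 7.43 to 7.47 in the other GSGME livers. UQCRC1 was 9.12 in Liver_control_819 and 8.66 to 8.79 in the other control livers.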

How the results depend on the processing

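No member passed the criterion under any alternative. The fold thresholds of 1.2 and 1.5 could not change this, since 0 members had P under 0.05 in the main limma fit. The number of members with an unadjusted P under 0.05 and GSGME higher was 1 by the methods' t-test, 1 once arrays were weighted and 1 with eBayes with trend and robust, in each case SDHB (unadjusted P = 0.034, 0.041 and 0.048, the latter 2 by limma), and with GSGME lower it was 1 with array weights (COX8B, unadjusted P = 0.031). When each liver was left out in turn, these numbers ran from 0 to 3 (higher) and from 0 to 4 (lower), both highest without Liver_control_819 (NDUFB2, NDUFS3 and SDHB higher, ATP5ME, COX4I2, COX8B and NDUFA4L2 lower). The number of intervals within 1.3-fold ran from 56 to 64, with fewer livers in each fit. The median difference of the members lay between -0.03 and 0.04. Over all transcripts the number past the criterion downwards was 109 by the t-test and 139 to 289 with a liver left out, and with transcripts above the median only it was 142 upwards and 61 downwards. Leaving out a single liver moved the difference of 20 of the 28 members named by rule by over 1.5 times. Some differences, most of them close to 0 but also that of COX7C (0.17), changed sign. They were -0.031 for COX6A1, -0.017 for COX8A and -0.031 for SDHD after cyclic loess, and -0.021 for COX6A1 with array weights. With a liver left out they ran from -0.030 to 0.116 for ATP5MC1, -0.073 to 0.063 for COX6A1, -0.084 to 0.074 for COX6A2, -0.073 to 0.001 for COX7A2, -0.038 to 0.289 for COX7C and -0.033 to 0.047 for SDHD. The cause was not tested. No paired analysis was possible because the groups share no cow number.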
